A study of Mus musculus with 8 samples.

Results

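Among cells sorted from mouse hearts as endothelial, 73 of 28671 carried the transcripts of fibroblasts, the cells that build and renew the collagen matrix of the heart. They were selected on their own transcripts. Each had unique molecular identifiers (UMIs, 1 per captured RNA molecule) of at least 4 of the 9 genes Dcn, Col1a1, Col1a2, Col3a1, Lum, Postn, Mfap4, Mfap5 and Pdgfra, at least 3 UMIs of Dcn, and 0 UMIs of the leukocyte gene Ptprc and of the pericyte gene Rgs5. The table held 31028 cells in all. Before the selection, 2041 cells of healthy mouse 228 whose barcode also occurred in mouse 239, and 316 cells of mouse 227 whose barcode also occurred in mouse 228, were left out, and 6 further fibroblasts went with them. No barcode was held by more than 1 of the 73 cells, and 1 of them had a barcode that was present in another library.

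All 8 animals were adult Pdgfb-iCreERT2-R26R-Brainbow2.1 mice, in which tamoxifen starts a Cre recombinase driven by the endothelial gene Pdgfb and switches on Confetti fluorophores. Every mouse had received a single dose of 150 mg/kg tamoxifen. In 4 mice (MI 244, 250, 255 and 256) the left anterior descending artery was tied 14 days later to cause myocardial infarction (MI), and hearts were taken 7 days after MI. The 4 healthy mice (227, 228, 239 and 240) had no operation and no infarct. MI mice were also anaesthetised, had the chest opened and received buprenorphine. The effects of the infarct and of the operation therefore cannot be told apart in any comparison of MI with healthy mice. Cells positive for CD31 and Confetti and negative for podoplanin were sorted, and 1 library was made for each mouse. In each group, 1 of the 4 libraries held the Y-linked transcripts Ddx3y and Eif2s3y. The depth of all cells kept was lower in the healthy group, with 11125 cells and a median of 2135 UMIs, than in the MI group, with 17546 cells and a median of 4272 UMIs.

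In the resting heart, fibroblasts lie between the muscle fibres and hold small proteoglycans such as decorin and lumican, the products of Dcn and Lum. After an infarct they are known to turn into matrix-producing cells that lay down fibrillar collagen, fibronectin and periostin, and later into contractile myofibroblasts. Fibroblasts normally lack Pdgfb and CD31, so these cells were not the target of the sort.

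The selection genes themselves give a description only, since they chose the cells. Dcn was present in 100% of the 73 cells by construction. Lum had a UMI in 18 of 19 healthy and 49 of 54 MI cells, and Col1a2 in 17 of 19 and 48 of 54. Postn, the matricellular protein periostin, had a UMI in 4 of 19 healthy cells and in 37 of 54 MI cells. Without counting Postn, 18 of the healthy and 51 of the MI cells still held 4 or more of the other 8 genes, so that 1 healthy and 3 MI cells were selected through Postn. Pdgfra, a growth factor receptor of cardiac fibroblasts, had a UMI in 9 healthy and 21 MI cells, the fewest of the 9 genes over all 73 cells, while in healthy cells Postn and Mfap4 were sparser.

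The level of a gene was taken in CPM, its UMIs in the summed fibroblasts of a mouse scaled to the same total for every mouse. The level of Col1a1, a chain of fibrillar type I collagen, was 651, 818, 561 and 513 CPM in healthy mice 227, 228, 239 and 240, and 6251, 5753, 2548 and 7763 CPM in MI mice 244, 250, 255 and 256. The level of Col3a1, the chain of type III collagen, was 879, 1995, 958 and 1631 CPM in the same healthy mice and 6699, 5592, 3741 and 9997 CPM in the MI mice. For both collagens all 4 MI mice lay above all 4 healthy mice. The level of Postn was 0, 1995, 132 and 0 CPM in the healthy mice and 5603, 3858, 2241 and 1637 CPM in the MI mice, so that mouse 228 lay inside the MI range. The level of Dcn was 12310, 10588, 15256 and 15611 CPM in the healthy mice and 7660, 12466, 7562 and 6281 CPM in the MI mice, and the level of Lum was 1739 to 3542 CPM in healthy and 1239 to 2529 CPM in MI mice. The groups overlapped for Dcn and for Lum.

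The selection had a sharp lower edge on Dcn and a soft one on the number of genes. Of the cells with 4 or more of the 9 genes, 2 had 0 UMIs of Dcn, 1 had 1 UMI and 0 had 2 UMIs, against 4 cells inside the threshold at 3 UMIs. Of the cells with enough Dcn, 15 held only 3 of the 9 genes and stayed out, against 9 inside with 4 genes and 20 with 8 genes. A further 5 cells were left out for Ptprc and 8 for Rgs5.

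Whether the cells were fibroblasts alone was checked on 9 endothelial genes (Pecam1, Cdh5, Kdr, Egfl7, Cldn5, Esam, Tie1, Eng and Emcn), which were not used to choose them. Fibroblast and endothelial transcripts occurred together in most of the cells. At least 3 of the 9 endothelial genes had a UMI in 8 of 19 healthy fibroblasts (42.1%) and in 42 of 54 MI fibroblasts (77.8%), including all 6 cells of mouse MI 256. The median number was 1 in healthy and 5 in MI fibroblasts. Fewer than 3 were held by 23 cells, 11 healthy and 12 MI. The other 50 cells held fibroblast and endothelial genes together, against the label, and all 73 are called fibroblasts here by the selection only.

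**Figure D1:**
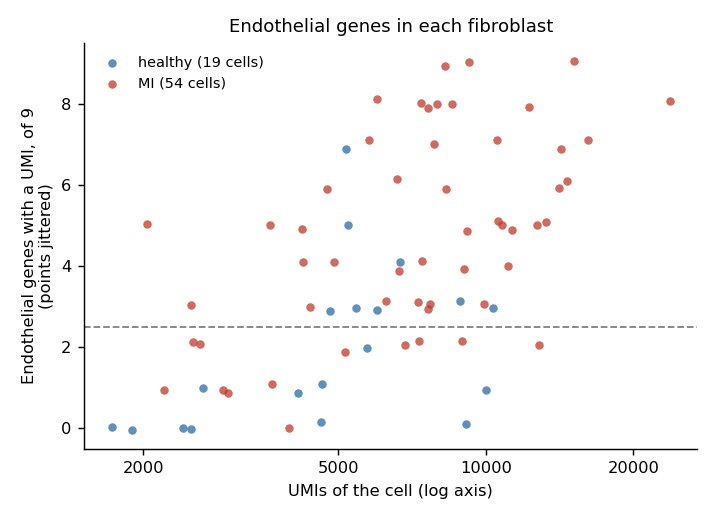
Each point is a fibroblast, placed by its total UMIs on a log axis and by the number of 9 endothelial genes with a UMI, for 19 healthy cells in blue and 54 MI cells in red, with a small vertical jitter. Above the dashed line lie the 8 healthy and 42 MI cells with 3 or more endothelial genes.

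The count of endothelial genes rises with depth, and the MI fibroblasts were deeper. The median fibroblast of a mouse had 4979 ± 193 UMIs in healthy (SD, n = 3 mice with at least 5 fibroblasts) and 7578 ± 409 UMIs in MI mice (SD, n = 4). The difference of 2599 UMIs gave p = 0.0571 in a two-sided exact permutation test, the smallest p that 3 against 4 mice allow. The median number of genes was 2099 ± 12.1 in healthy and 2711 ± 170 in MI fibroblasts, also with p = 0.0571 by the exact permutation test. The 3 cells of mouse 228 had a median of 2652 genes, above mouse MI 256 at 2498.5, so that with all 8 mice the groups overlapped in genes (p = 0.0571) but not in UMIs, where the difference was 2172 (p = 0.0286, exact permutation tests). Among fibroblasts with fewer than 3 endothelial genes, the median was 3536 ± 1110 UMIs in healthy and 3789 ± 734 UMIs in MI mice (SD, n = 4 and 3). The differences were 253 UMIs and 98.25 genes (each p = 0.8, exact permutation tests). These cells were themselves picked by a count that rises with depth.

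With each cell thinned at random to 1000 UMIs, endothelial genes were still present. The mean was 1.11 endothelial UMIs in a healthy fibroblast and 2.65 in an MI fibroblast, against 8.56 and 8.04 in endothelial cells, of which 9179 of 9628 healthy ones were deep enough to thin. At this depth the median number of endothelial genes was 0 and 1, with none in 63.2% of healthy and 38.9% of MI fibroblasts. The endothelial level was highest in cells near the edge of the selection. The 15 cells with 4 or 5 selection genes had a median of 5472 CPM of the 9 endothelial genes, against 714 CPM in the 58 cells with 6 or more and 7769 CPM in the pooled endothelial cells. Of those 15 cells, 4 were healthy and 11 MI. Endothelial cells were defined here as the 24602 other cells with 4 or more of the 9 endothelial genes and no UMI of Ptprc or Rgs5. Averaged by mouse, the thinned fibroblasts held 1.07 ± 1.10 endothelial UMIs (SD, 4 healthy mice) against 2.57 ± 1.21 (SD, 4 MI mice; p = 0.114, two-sided exact permutation test), and the groups overlapped. Sorted cells with macrophage or pericyte genes also held endothelial UMIs. The 718 cells with Ptprc and complement C1q transcripts, which mark macrophages, had a mean of 1.64 endothelial UMIs, and the 354 cells with Rgs5 and other pericyte genes had 3.29. The share of cells with a Pecam1 UMI at this depth was 21.9% in the 73 fibroblasts, 12.7% in the macrophage-gene cells, 31.1% in the pericyte-gene cells and 57.1% in endothelial cells. Both comparison classes were picked with the data in view. Free RNA, joint capture of a pair of cells and true double expression cannot be told apart from these counts.

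The genes of the sort itself gave a mixed picture. Pdpn, which encodes the podoplanin used to exclude cells, had a UMI in 41.1% of fibroblasts, at a median of 6855 UMIs, and in 0.281% of endothelial cells, at a median of 3122 UMIs. After thinning the shares were 8.22% and 0.0952%. Pdgfb, the Cre driver, had a UMI in 6.85% of fibroblasts and in 31.4% of endothelial cells, without thinning. The share was 0% in the 19 healthy and 9.26% in the 54 MI fibroblasts. It was 10% in the 50 cells with 3 or more endothelial genes and 0% in the 23 with fewer. Markers of further cell types differed in level. Of 12 cardiomyocyte genes 3 were at 0, and the summed level of the list was 0 to 198 CPM in healthy and 8.06 to 288 CPM in MI mice. Of the mesothelial and epicardial genes that the table held, 3 of 4 were at 0. The 18 macrophage and other leukocyte genes summed to 0 to 163 CPM in healthy and 265 to 2709 CPM in MI fibroblasts, with the highest value in mouse MI 250. In endothelial cells of the same mice they summed to 65.9 to 529 CPM in healthy and 638 to 1740 CPM in MI mice. Of the 18 genes, the lysozyme gene Lyz2 had a UMI in 56.2% of the 73 cells, at 317 CPM against 336 CPM in endothelial cells. Their part in the results below was not tested.

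The first question of the design was whether infarction changed how many such cells were in the sort. Fibroblasts made up 0.205%, 0.184%, 0.158% and 0.154% of the cells of healthy mice 227, 228, 239 and 240, from 5, 3, 6 and 5 cells. They made up 0.327%, 0.333%, 0.375% and 0.168% of MI mice 244, 250, 255 and 256, from 15, 17, 16 and 6 cells. The 95% exact binomial intervals were wide, from 0.0380% to 0.538% in mouse 228 and from 0.214% to 0.608% in mouse 255, and cover counting error only. The MI mice 244, 250 and 255 lay above every healthy mouse, while mouse MI 256 lay within the healthy range. The healthy mice averaged 0.175% ± 0.0243 and the MI mice 0.301% ± 0.0912 (SD over 4 mice in each group). The difference of 0.125 percentage points gave p = 0.0857 by two-sided exact permutation, where 4 against 4 mice can reach 0.0286 at the lowest. The difference did not pass the threshold of 0.05.

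The direction of this difference changed with how cells with endothelial genes were left out. Without the 50 cells that held 3 or more of them, the healthy mice averaged 0.0955% ± 0.0260 and the MI mice 0.0645% ± 0.0639 (SD over 4 mice, p = 0.371, exact permutation test), and mouse MI 256 had 0 of 3581 cells left, which allows a share of up to 0.0838% (3 cells of the total). The cells left out were deeper, with a median of 7776.5 UMIs against 3967 UMIs in those kept. With every cell first thinned to 1000 UMIs, and the fibroblasts with 2 or more endothelial genes then left out, the healthy mice averaged 0.0979% ± 0.0278 and the MI mice 0.179% ± 0.0336 (p = 0.0286, exact permutation test), with no overlap between the groups. This last setting was added with the data in view. The sort used other gates than Dcn, so the shares describe the sorted cells and not the heart.

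**Figure D2:**
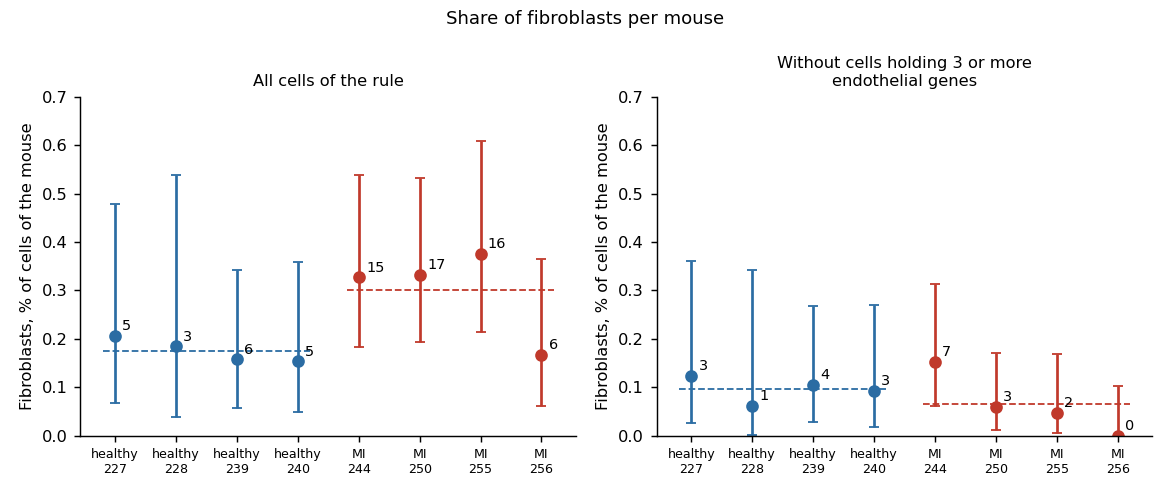
Points give the share of fibroblasts among the cells of each mouse in percent, with 95% exact binomial intervals, the number of fibroblasts beside each point and the mean of 4 mice as a dashed line, healthy in blue and MI in red. With all 73 cells the MI mean was 0.301% against 0.175%, and with the 23 cells that held under 3 endothelial genes it was 0.0645% against 0.0955%.

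The genes that set the fibroblasts apart from endothelial cells are a description, because the cells were chosen on their transcripts, and no test was run. The 30 genes with the largest ratio, among those with a UMI in at least 25% of the fibroblasts, had log2 ratios of 4.74 to 8.28 on the scale of CPM + 20. They comprised 8 of the 9 selection genes and 22 others. Gsn, an actin-severing protein that is abundant in fibroblasts, led the others with 8778 CPM in fibroblasts and 12.9 CPM in endothelial cells, a log2 ratio of 8.06. Mgp, an inhibitor of calcification, had 10159.8 CPM against 163 CPM. Among the others were the small proteoglycan asporin, Aspn, at 1145 CPM against 1.06 CPM, fibulin Fbln1 at 847 against 0.915 CPM, and the type VI collagen chain Col6a1 at 661 against 1.39 CPM. The small proteoglycan Bgn was at 4841 against 150 CPM.

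The 22 also included secreted enzymes. Loxl1, which crosslinks elastin, had 752 CPM in fibroblasts and 0.587 CPM in endothelial cells. The gelatinase Mmp2 had 795 against 10.2 CPM, and the protease Htra3 had 680 against 1.11 CPM. Serping1, an inhibitor of the first complement proteases, had 1221 against 13.2 CPM. The long non-coding RNA Meg3 had 1026 against 0.209 CPM, and the extracellular glutathione peroxidase Gpx3 1143 against 4.64 CPM. Across single mice the log2 ratio was above 0 in all 8 mice for 26 of the 30 genes and above 4 in all 8 mice for 16 of them. The 4 exceptions were Postn, Mfap4, Sfrp2 and Cthrc1, which had no UMI in the fibroblasts of at least 1 healthy mouse.

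**Figure D3:**
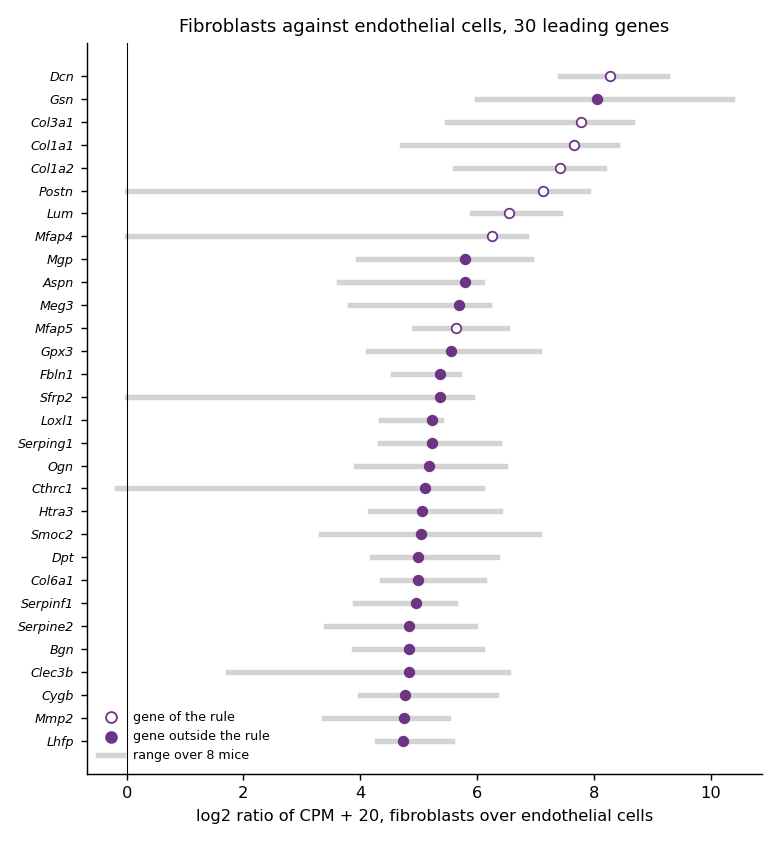
Points give the log2 ratio of pooled CPM + 20 between 73 fibroblasts and 24602 endothelial cells for the 30 leading genes, open for genes of the selection, and grey bars give the lowest and highest ratio in a mouse. The ratios run from 4.74 to 8.28, and the bars of Postn, Mfap4, Sfrp2 and Cthrc1 reach 0.

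The next question was which genes differed between MI and healthy fibroblasts. The summed fibroblasts of the 4 MI mice were compared with those of healthy mice 227, 239 and 240 in a quasi-likelihood fit (edgeR) whose p-values were adjusted by Benjamini-Hochberg over all genes tested. Mouse 228 had only 3 fibroblasts, fewer than the 5 required. Of 766 genes that passed the count filter, 33 (4.31%) had an adjusted p under 0.05, 22 higher (2.87%) and 11 lower (1.44%) in MI. The median log2 fold change of all 766 was 0.0168. Of the 33, 5 were selection genes and are not counted further, which left 17 genes higher and 11 lower. Groups did not overlap in 139 of the 766 genes (18.1%). Genes whose levels follow the selection genes from cell to cell were in part selected with them. Endothelial cells of the same mice, with 100502710 UMIs over all 8 mice, gave 3857 calls among 12682 genes (30.4%). The 3 healthy sums held 82449 UMIs together, against 437774 in the 4 MI sums.

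Cthrc1, a secreted protein of collagen-producing fibroblasts (chr15:39076932-39087121, plus strand, GRCm38, protein-coding), had no UMI in the healthy fibroblasts. Its level was 0 CPM in all 4 healthy mice and 776, 1393, 669 and 1659 CPM in the MI mice. Sfrp2, a secreted modulator of Wnt signalling (chr3:83766321-83774316, plus strand), was likewise at 0 CPM in all 4 healthy mice and at 968, 864, 1250 and 973 CPM in the MI mice. The MI mice thus lay close together for Sfrp2 and spread more widely for Cthrc1. With 0 UMIs in the 3 healthy sums, a floor of 3 UMIs over the group stands at 36.4 CPM, which makes Cthrc1 at least 30.9-fold and Sfrp2 at least 27.9-fold higher in MI (adjusted p = 0.00425 and 0.00132, edgeR). Wisp2, a member of the CCN matricellular family, was at least 13.5-fold higher and 1500015O10Rik at least 9.32-fold higher, with adjusted p = 0.0305 and 0.0126. As shares of cells, Cthrc1 had a UMI in 32 of 54 MI fibroblasts and in 0 of 19 healthy ones. By the same rule 0 of 19 allows up to 15.8% of cells with a UMI, for counting error only and with cells of 4 mice pooled. After thinning to 1000 UMIs, 42.6% of MI fibroblasts and 0.481% of MI endothelial cells held it.

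Fn1, Eln and Lox, which act in the extracellular matrix, were higher in MI. Fn1, fibronectin (chr1:71585520-71653200, minus strand), had 0, 132 and 93.2 CPM in healthy mice 227, 239 and 240, 256 CPM in mouse 228, and 1713, 1003, 1193 and 2919 CPM in the MI mice. Its log2 fold change was 4.48 ± 0.70 (SE, adjusted p = 0.00575, edgeR). Eln, elastin (chr5:134702593-134747323, minus strand), had 32.6, 132 and 186 CPM in the 3 healthy mice, 102 CPM in mouse 228, and 656, 2298, 2588 and 3539 CPM in the MI mice, with a log2 fold change of 4.31 ± 0.73 (adjusted p = 0.00813). Lox, the enzyme that crosslinks collagen and elastin, rose from a mean of 10.9 ± 18.8 CPM to 445 ± 268 CPM (SD, n = 3 and 4; adjusted p = 0.0197). Its healthy mean rests on 1 UMI in mouse 227. Over the alternatives its log2 fold change ranged from 4.41 to 8.12, and the call was lost in 2 of 14. No MI mouse overlapped a healthy mouse for these 3 genes.

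Further matrix genes rose less steeply. Sparc, a collagen-binding glycoprotein (chr11:55394500-55423183, minus strand), had 1400, 3137 and 1817 CPM in healthy mice 227, 239 and 240 and 9084, 10725, 8312 and 13115 CPM in the MI mice, with mouse 228 at 3120 CPM. Its log2 fold change was 2.26 ± 0.33 (SE, adjusted p = 0.00534, edgeR). The non-fibrillar collagen Col8a1 had 163, 198 and 140 CPM in the 3 healthy mice and 784, 1163, 806 and 1637 CPM in the MI mice, with a log2 fold change of 2.66 ± 0.40 (adjusted p = 0.00575). Mouse 228 had 767 CPM of Col8a1, just under the lowest MI mouse. Col5a2, a regulatory chain of collagen fibrils, rose by 2.98 ± 0.56 on the log2 scale, and Serpinh1, the collagen chaperone, by 1.05 ± 0.24. Serpinh1 lost its call in 6 of 16 alternatives, with 0.39 (adjusted p = 0.80, edgeR) when cells were thinned. The cyclophilin Ppic, the LIM domain protein Csrp2 and the glycoprotein Fstl1 rose by 2.08, 1.94 and 1.12 on the log2 scale. Pdgfrl and the growth factor Ptn rose by 3.83 and 3.53, from 2 and 4 UMIs in the healthy sums. All 4 UMIs of Ptn came from mouse 239. Without that mouse its fitted value was 8.58, without mouse 227 it was 2.97 (adjusted p = 0.162, edgeR) and without mouse 240 it was 3.19 (adjusted p = 0.0706). Serf2, the remaining gene, rose by 0.93. Fstl1 lost its call in 7 and Serf2 in 5 of 16 alternatives.

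Among the fibroblast markers outside the selection that were tested, Gsn, Clec3b and Smoc2 fell in MI, Fstl1 rose, and the others were not called. Gsn (chr2:35256380-35307892, plus strand) had 27389, 26780 and 33692 CPM in healthy mice 227, 239 and 240, and 5034, 8218, 2548 and 2521 CPM in the MI mice, a log2 fold change of -2.69 ± 0.42 (SE, adjusted p = 0.00575, edgeR). Clec3b, the plasminogen-binding protein tetranectin (chr9:123150946-123157432, plus strand), had 1889, 1816 and 1631 CPM in the 3 healthy mice and 320, 474, 290 and 243 CPM in the MI mice, a log2 fold change of -2.41 ± 0.26 (adjusted p = 0.00146). Smoc2, a calcium-binding matrix protein (chr17:14279506-14404790, plus strand), had 1466, 2080 and 2656 CPM against 184, 689, 371 and 243 CPM, a log2 fold change of -2.45 ± 0.43 (adjusted p = 0.00887). For each of the 3 genes the MI mice lay below the 3 healthy mice.

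Mouse 228 did not share this pattern. Its 3 fibroblasts had 6342 CPM of Gsn, 51.1 CPM of Clec3b and 256 CPM of Smoc2, values within or below the MI range. They also had 0 CPM of Cthrc1, Sfrp2 and Wisp2, as in the other healthy mice. With mouse 228 included, the groups were apart in 23 of the 28 genes and in 90 of the 766 tested, and the 5 that overlapped were Clec3b, Fstl1, Gsn, Lpl and Smoc2. In the fit with all 8 mice Clec3b had an adjusted p of 0.0677 and Smoc2 of 0.0542, Fstl1 of 0.0574, and Gsn of 0.0252 (edgeR). Of these 3 cells, 2 held 3 or more endothelial genes, and this library is the one from which 2041 cells with barcodes of mouse 239 were left out.

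Pcsk6, a proprotein convertase (chr7:65861734-66050386, plus strand), had 391, 495 and 746 CPM in healthy mice 227, 239 and 240 and 40.0, 69.6, 16.1 and 66.3 CPM in the MI mice, with 205 CPM in mouse 228, so that it stayed apart in all 8 mice. Its log2 fold change was -3.51 ± 0.47 (SE, adjusted p = 0.00367, edgeR). Lpl, which hydrolyses circulating triglycerides, fell from 1147 ± 275 to 310 ± 142 CPM, and Gstm1, a glutathione transferase, from 1405 ± 361 to 324 ± 180 CPM (SD, n = 3 and 4). Gas1, a growth-arrest gene that also binds hedgehog, fell from 883 ± 411 to 234 ± 108 CPM, and Angptl2, a secreted angiopoietin-like protein, from 354 ± 54.1 to 107 ± 31.3 CPM. The laminin chain Lamc1 fell from 566 ± 168 to 210 ± 51.8 CPM, and lost its call in 6 of 14 alternatives. Gas1 and Angptl2 each lost the call in 5 of 14. The other genes lower in MI were Wdr89 and Gm10263. Gm10263 is annotated as a processed pseudogene, whose reads could come from a near-identical parent gene.

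**Figure D4:**
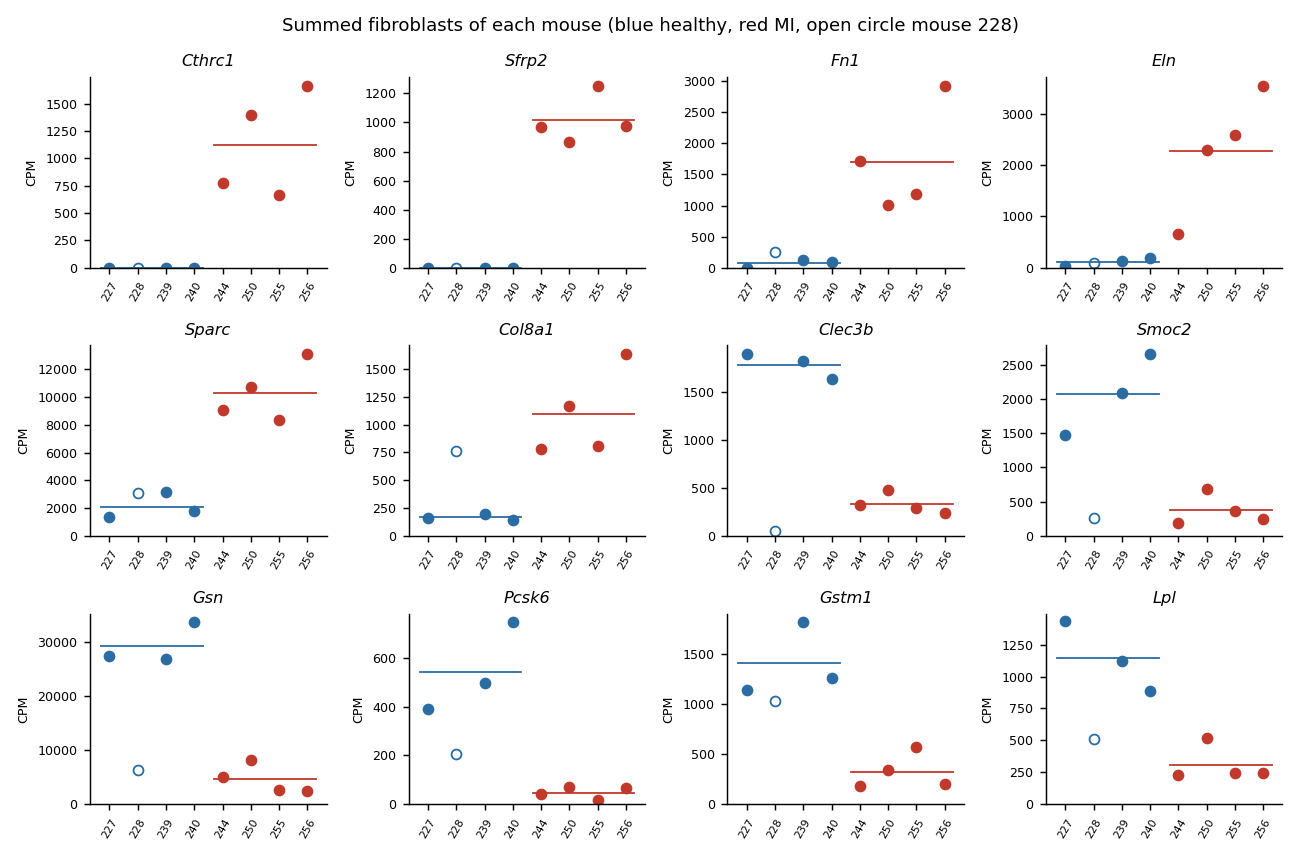
Each panel plots the CPM of a gene in the summed fibroblasts of the 8 mice, healthy in blue and MI in red, with the mean of the 3 tested healthy and the 4 MI mice as lines and mouse 228, which was not in the fit, as an open circle. Mouse 228 is at 0 CPM of Cthrc1 and Sfrp2 with the healthy mice and at 51.1 CPM of Clec3b below the MI mice.

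The calls were compared with the cells that held few endothelial genes. In the 11 healthy and 12 MI fibroblasts with fewer than 3, pooled by group, Cthrc1 was 0 against 1306 CPM, Sfrp2 0 against 2194 CPM, Fn1 121 against 3000 CPM and Eln 121 against 2613 CPM. In the same cells Gsn was 26148 against 6597 CPM, Clec3b 1579 against 516 CPM and Pcsk6 344 against 80.6 CPM. The direction was the one seen in all 73 cells for each of these 7 genes. However, these 23 cells are part of the 73, and the genes were chosen from calls made with them. Cthrc1, Sfrp2, Fn1 and Eln had passed the count filter through the MI mice alone, and Pcsk6 through the healthy mice alone. The shared direction therefore carries no weight of its own. The pooled values have no replicate error. In a fit on these 23 cells, 14 genes were higher and 1 lower among 203 tested, and 8 of the 12 called genes that could be tested passed. Clec3b, Smoc2, Gsn and Serf2 did not, with log2 fold changes of -1.33, -1.50, -2.09 and 1.07 and adjusted p-values of 0.286, 0.240, 0.109 and 0.0665 (edgeR). With only the 58 cells of 6 or more selection genes, added with the data in view, 27 of the 27 that could be tested passed, among 38 genes higher and 18 lower.

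The gene lists place these changes among their relatives. Of 22 matricellular and activation genes, 12 passed the count filter, 6 of them were higher in MI (Cthrc1, Fn1, Sparc, Wisp2, Sfrp2 and Fstl1) and 0 lower, and their median log2 fold change was 2.95, against 0.0168 for all 766 genes. Of these 6, Cthrc1, Fn1, Sfrp2 and Wisp2 passed the filter through the MI mice alone, as did 7 of the 12 tested, and could only be called higher. The filter asked for about 221 CPM, and 13 of the 17 higher genes lay under it in all 3 tested healthy mice (Col5a2, Col8a1, Eln and Lox among them), while 3 of the 11 lower genes (Angptl2, Gm10263 and Pcsk6) lay under it in all 4 MI mice. The filter fixed the direction of such genes, so the counts and medians of the lists carry no weight of their own. The summed level of the list was 5173 to 8337 CPM in the healthy and 18076 to 30278 CPM in the MI mice, without overlap. The other list counts, here and in the next 2 paragraphs, stand beside 2.87% higher and 1.44% lower among all genes tested. Of 15 collagens outside the selection, 9 were tested, 4 of them through the MI mice alone, and 2 of these 4 (Col5a2 and Col8a1) were called higher and 0 of the 9 lower. Of 14 elastic fibre genes, 8 were tested and Eln was higher, while the fibulin Fbln5 and the fibrillin Fbn1 had log2 fold changes of 1.47 and 1.30 with adjusted p-values of 0.1175 and 0.112. Of 18 genes for collagen processing, 6 were tested and Lox, which passed the filter through the MI mice alone, and Serpinh1 were higher. Of 9 proteoglycans, 5 were tested and none was called at adjusted p, with Bgn at 0.995 (adjusted p = 0.0964).

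Of 24 fibroblast markers outside the selection, 16 were tested, Fstl1 was higher and Gsn, Clec3b and Smoc2 were lower, with a median log2 fold change of -0.64. Mgp had a log2 fold change of 0.71 (adjusted p = 0.426). Among 10 contractile genes only Tpm4 and Tagln passed the filter. Tagln, which encodes the actin-binding protein transgelin, had 0, 51.1, 33.0 and 0 CPM in the healthy mice and 56.0, 244, 331 and 376 CPM in the MI mice, with a log2 fold change of 4.11 ± 1.25 and an adjusted p of 0.0964 (edgeR), above the threshold. Acta2, the smooth muscle actin of myofibroblasts, was too low to test and had a UMI in 2 of 19 healthy and 14 of 54 MI fibroblasts. None of the 16 cell cycle genes passed the filter. Their summed level was 51.1 to 373 CPM in the healthy and 167 to 272 CPM in the MI mice, with overlap. Mki67 had a UMI in 5 of 54 MI and 0 of 19 healthy cells, and after thinning in 1 of 54 and 0 of 19. With 0 of 19, up to 15.8% of healthy cells could hold it.

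Chemokine genes were uneven between mice. Of 16, Cxcl1 and Cxcl14 were tested. The neutrophil attractant Cxcl1 had 1466, 102, 1486 and 46.6 CPM in the healthy mice and 96.7 to 341 CPM in the MI mice, with an adjusted p of 0.0964 (edgeR), and healthy mice lay on both sides of the MI range. Of 12 tested immediate early and heat shock genes, which respond to tissue digestion, none was called, with a median log2 fold change of -0.32, and the summed level of the list was 7877 to 18465 CPM in the healthy and 12540 to 14061 CPM in the MI mice. Of 7 tested genes for folding in the endoplasmic reticulum none was called, and Hspa5 had a log2 fold change of -1.10 (adjusted p = 0.0685). None of the 4 tested endothelial genes was called, with Egfl7 at 1.34 (adjusted p = 0.0674) and Pecam1 at 0.78 (adjusted p = 0.673).

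The presence of these transcripts in single MI fibroblasts is given as counts, in which a missing UMI does not show that a gene is off. Of the 54 cells, 32 held Cthrc1, 28 held Sfrp2 and 24 held both. Clec3b was present in 8 of the 32 cells with Cthrc1 and in 12 of the 22 cells without it, at median depths of 7958 and 6967.5 UMIs. Cells with Cthrc1 came from all 4 MI mice, with 9, 10, 9 and 4 cells from mice 244, 250, 255 and 256. Of the cells with and without Cthrc1, 24 and 18 held 3 or more endothelial genes. Pi16, a gene of perivascular and adventitial fibroblasts, had a UMI in 12 of 19 healthy and 42 of 54 MI fibroblasts, and after thinning in 36.8% and 40.7%. Cells of a mouse are not replicates, so these counts carry no test.

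The MI effect was next compared between fibroblasts and endothelial cells of the same mice. Endothelial cells of the same sort also shifted: of the 28 fibroblast genes, 22 could be tested in endothelial cells, where 14 were called in the same direction and 2, Gsn and Lamc1, in the opposite direction, where 30.4% of all endothelial genes tested were called. The difference between the effects was tested in a joint edgeR fit with an interaction term, which called 142 of 11397 genes (1.25%), 104 relatively higher and 38 relatively lower in fibroblasts. This fit assumed the same spread for sums of few fibroblasts and for sums of many endothelial cells, so its p-values may be too small. Its median log2 difference over all genes was 0.638. DESeq2 turned the balance, with 11 relatively higher and 28 lower. A second test, added with the data in view, took from each mouse the log2 ratio of CPM + 20 between its fibroblasts and endothelial cells and compared the ratios with limma. It called 43 of 766 genes (5.61%), and 19 genes were called by both. Of the 19, 11 passed in every alternative fit. The 8 that lost the call in at least 1 were Cd63, Col8a1, Comp, Egfl7, Lamc1, Lox, Phlda1 and Ppic, with 6 lost under DESeq2, 5 without mouse 227 and 4 without mouse 239.

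For 12 of these 19 the MI effect was relatively higher in fibroblasts. The ratio test ran on the 766 genes that passed the fibroblast count filter. Of the 12, Cthrc1, Fn1, Comp, Lox, Eln, Col8a1, Ppic and Egfl7 passed that filter through the MI mice alone, which favoured this direction. The count of 12 carries no weight of its own. Cthrc1, Fn1, Comp, Lox, Eln, Col8a1 and Ppic differed by 5.49, 3.93, 3.90, 3.83, 3.17, 2.06 and 1.14 in the log2 ratio. The value of Cthrc1, with 0 UMIs in healthy fibroblasts, is set by the pseudocount of 20 CPM (14.18 in the joint fit) and is no estimate of size. The pseudocount also shrinks the difference where a level lies near or under 20 CPM, as for Lox at a mean of 10.9 CPM in healthy fibroblasts (4.69 in the joint fit). For Fn1 the endothelial level was 44.7 to 76.7 CPM in healthy and 84.2 to 124 CPM in MI mice, a log2 fold change of 0.63. Comp, the cartilage oligomeric matrix protein, did not pass the test in fibroblasts alone (adjusted p = 0.0685, edgeR). The other 5 genes, Ly6c1, Hspb1, Id3, Timp3 and Egfl7, had no call in fibroblasts, and 4 of them fell in endothelial cells. Egfl7 had an endothelial log2 fold change of -0.05 (adjusted p = 0.623). For Hspb1, a small heat shock protein, endothelial cells fell by 1.40 on the log2 scale while fibroblasts had 165 to 521 CPM in healthy and 313 to 443 CPM in MI mice.

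The 7 genes that were relatively lower in fibroblasts included Gsn and Pcsk6, with differences of -3.18 and -3.22 (adjusted p = 0.00521 and 0.00267, limma). Pcsk6 passed the fibroblast count filter through the healthy mice alone, which favoured this direction. In endothelial cells Gsn rose by 0.94 on the log2 scale from a low level, 2.46 to 9.44 CPM in healthy and 9.61 to 19.9 CPM in MI mice. After thinning, 1.01% of endothelial cells held Gsn, against 17.7% of the macrophage-gene cells, and whether this low endothelial level is background was not tested. The laminin chain Lamc1 differed by -1.78, S100a6, a calcium-binding protein, by -1.99 and Phlda1 by -2.03. Cd63, a tetraspanin of late endosomes, had 1072 to 1288 CPM in healthy and 992 to 1421 CPM in MI fibroblasts, while in endothelial cells it was 25.1 to 51.4 CPM and 107 to 206 CPM. Oaf was 280 to 627 CPM in healthy and 199 to 280 CPM in MI fibroblasts, and rose by 3.17 on the log2 scale in endothelial cells, from a mean of 2.83 to 27.3 CPM. Its difference was -1.61 in the ratio with the pseudocount and -3.36 in the joint fit.

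**Figure D5:**
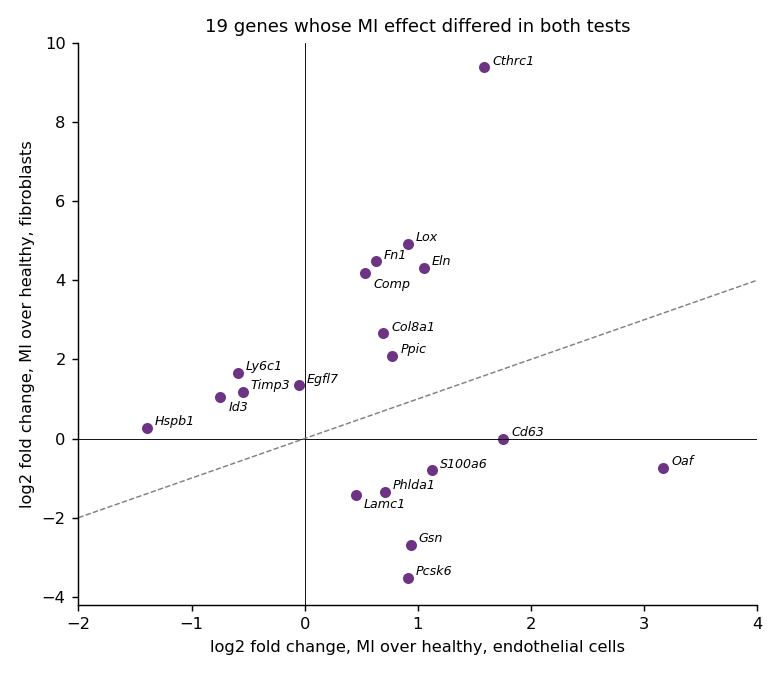
For the 19 genes called by both tests of the difference, the log2 fold change of MI over healthy in endothelial cells is on the horizontal axis and that in fibroblasts on the vertical axis, and the dashed line marks equal change. Cthrc1, with 0 UMIs in the healthy fibroblasts, has no finite fold and is drawn at its fitted value, while Gsn and Pcsk6 lie below 0 in fibroblasts and above 0 in endothelial cells, where Pcsk6 was not called (adjusted p = 0.11, edgeR).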

How the data were processed

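The authors deposited a table of raw counts, the UMIs of 16791 genes in 31028 cells of 8 libraries of the 10x Genomics Chromium 3' assay, without normalization. Per the labels and methods, Cell Ranger with mm10, R 3.5.2 and Seurat 2.3 were used, and cells with few genes or many mitochondrial UMIs had been removed. In the table the lowest number of genes in a cell was 403 and the highest mitochondrial share 19.96%. The sort gated out doublets and no doublet caller was run here.

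The members and gene lists were chosen with earlier results of these data known. Counts of the fibroblasts, and of the endothelial cells, of a mouse were summed. Mice with at least 5 fibroblasts were compared with edgeR 4.0.16 in R 4.3.3 (TMM, filterByExpr, quasi-likelihood test, Benjamini-Hochberg adjustment, threshold 0.05), with DESeq2 1.42.0 as an alternative and limma 3.58.1 for ratios with a pseudocount of 20 CPM. Cells were thinned without replacement to 1000 UMIs (seed 1). Single values were compared by exact permutation over mice with scipy 1.17.1. On simulated data with 801 genes tested, the fibroblast test found 88.7% of 62 genes changed 4-fold and 29.2% of 48 changed 2-fold. Both shares leave out changed genes that failed the count filter. The simulated spread between mice was fixed in advance and not taken from these data, so the shares may be too high for them. Other settings changed the selection, the filter, the depth, the shared barcodes, or left out each mouse. Mice are the replicates. Positions are from GENCODE M21 (GRCm38, which is mm10). Genes named were the 9 selection genes, the 30 leading genes against endothelial cells, up to 15 called genes in each direction with a mean of at least 50 CPM and groups apart, and from each list the called members and up to 6 of the highest. Serf2 fell outside this rule and was named after its values were seen, as were Pi16, Mki67 and the genes of the difference between cell types. The sources do not state whether the mice were processed on separate days.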

Additional observations from a re-analysis of the deposited data

Results flagged for a closer look

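Mouse 228 stood apart from the other 3 healthy mice in several values, with a gap to the nearest mouse above the limit of 0.829 of the range for 4 samples. Its fibroblasts had a median of 2652 genes, the highest of the group, and 1995 CPM of Postn, 767 CPM of Col8a1, 1176 CPM of Serf2 and 512 CPM of Gm10263, each the highest of the healthy mice. Its level of Clec3b, 51.1 CPM, was the lowest. These values rest on 3 cells. Lox was 32.6 CPM in mouse 227, from 1 UMI, and 0 in the other healthy mice. Lpl was 522 CPM in mouse MI 250, above the other MI mice. In all, 8 of 74 groups of 4 mice were marked in this way, where chance marks about 1 in 20 for normally spread values. Most of these groups were levels of genes called in the fit without mouse 228. Such calls favour genes whose other healthy mice lie close together, which makes mouse 228 more likely to be marked. The count of 8 therefore cannot be set against the chance share.

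The MI effect differed between fibroblasts and endothelial cells in both tests for 19 genes, of which 11 passed in every alternative fit. Of the 19, Cthrc1, Fn1, Comp, Lox, Eln, Col8a1, Ppic and Egfl7 passed the fibroblast count filter through the MI mice alone. Pcsk6 passed it through the healthy mice alone. For these genes the filter favoured the direction found. The differences of the log2 ratio per mouse, MI minus healthy, were 5.49 for Cthrc1 (set by the pseudocount, with 0 UMIs in healthy fibroblasts), 3.93 for Fn1, 3.90 for Comp, 3.83 for Lox (4.69 in the joint fit), 3.17 for Eln, 2.1 for Ly6c1, 2.06 for Col8a1, 1.73 for Hspb1, 1.68 for Id3, 1.59 for Timp3, 1.23 for Egfl7 and 1.14 for Ppic. They were -1.43 for Cd63, -1.61 for Oaf (-3.36 in the joint fit), -1.78 for Lamc1, -1.99 for S100a6, -2.03 for Phlda1, -3.18 for Gsn and -3.22 for Pcsk6. Where a level lies near or under 20 CPM, as for Lox in healthy fibroblasts and Oaf in endothelial cells, these values depend on the pseudocount. The summed level of the 9 endothelial genes was 293 to 2796 CPM in healthy and 1463 to 4055 CPM in MI fibroblasts, with overlapping groups (p = 0.2, exact permutation test over 8 mice), and their part in the differences of Egfl7 and Ly6c1 was not tested.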

How the results depend on the processing

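Few cells limit these results: 3 healthy mice gave 5 or 6 fibroblasts each, and the 2 settings that thin or strip the cells test few genes. The difference in share, 0.125 percentage points, ranged from 0.101 to 0.170 when each mouse was left out. It was 0.176 with at least 3 of the 9 genes (p = 0.0286, exact permutation test), 0.0809 with thinned cells and those with 2 or more endothelial genes left out (p = 0.0286, exact permutation test), and -0.0309 with cells of 3 or more endothelial genes left out. It did not pass at 0.124 with every cell thinned before the rule (p = 0.0571), 0.114 with at least 5 UMIs of Dcn (p = 0.114), 0.113 with at least 5 of the 9 genes (p = 0.0857) and 0.0931 with at least 6 (p = 0.0857, all exact permutation tests). The cause was not tested.

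The genes higher and lower in MI fibroblasts, 22 and 11, became 32 and 19 with DESeq2, 121 and 21 with no count filter, which moved the median log2 fold change to 0.696, 8 and 2 with cells thinned to 1000 UMIs (97 genes tested), 30 and 24 with shared barcodes kept, which also brought mouse 228 into the fit, 22 and 12 with them kept in the same 7 mice (added with the data in view), 14 and 1 without the cells of 3 or more endothelial genes (mice with at least 1 cell, chosen after the data had been seen), and 38 and 18 with at least 6 of the 9 genes. With 5 cells required, the setting without cells of 3 or more endothelial genes left only mouse MI 244 in its group and was not run. Leaving out each mouse gave 16 to 27 higher and 6 to 14 lower, with the fewest lower without healthy mouse 239. Of the 28 genes, 9 passed in every alternative that tested them (1500015O10Rik, Col8a1, Cthrc1, Eln, Fn1, Pcsk6, Ppic, Sfrp2 and Sparc) and none changed direction. The count filter had fixed the direction of 13 of the 28 through the MI mice alone and of 3 through the healthy mice alone. Of the 9 genes, only Sparc was not among these. Without mouse 239, 13 of 28 passed, and without mouse 227, 16. Mgp turned to -0.478 without the cells of 3 or more endothelial genes.

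The difference in UMIs per fibroblast, 2599, was about 2170 with all 8 mice (p = 0.0286, exact permutation test), added with the data in view. It was 253 among fibroblasts with fewer than 3 endothelial genes, in 4 healthy and 3 MI mice (p = 0.8, exact permutation test).

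The difference between cell types, 104 and 38 genes, was 11 and 28 with DESeq2 and 23 and 20 with limma on the ratio per mouse. Leaving out each mouse gave 42 to 107 and 21 to 34, with 42 and 21 without mouse 227, 51 higher without mouse 239 and 25 lower without mouse MI 255.

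No paired analysis was possible because healthy and MI mice share no numbers. In the difference between cell types both sums came from the same mouse.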
